A study of Drosophila melanogaster with 4 samples.

Results

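The proteasome subunit genes of Drosophila melanogaster were examined in testes in which germ cells overproliferate. The members were all genes whose FlyBase symbol starts with Prosalpha, Prosbeta, Rpn or Rpt followed by a digit, which gave 48 of the 17559 genes counted. Of these, 32 encode the constitutive subunits and 16 are testis paralogs, marked by a T or an R after the subunit number, which cover 12 of the subunit positions.

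The proteasome degrades proteins tagged with ubiquitin. Its core particle (20S) stacks rings of alpha subunits, which gate the entry, on rings of beta subunits, which hold the proteolytic sites. Its regulatory particle (19S) has a base, whose ring of Rpt ATPases unfolds the substrate, and a lid of Rpn subunits, which removes the ubiquitin chain. In Drosophila, many subunits have a duplicate gene expressed in the male germ line, and Prosalpha6T, for example, is needed for sperm development.

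Poly(A) RNA was sequenced from Caf40 knockdown and bam mutant testes, with 2 libraries per genotype and 150 pairs of testes in each. The methods add that the seminal vesicle was kept with the testis. Knockdown males were Caf40RNAi(BL67987)/nosGAL4: a hairpin against Caf40, a subunit of the CCR4-NOT deadenylase, was driven in early germ cells by nanos-Gal4, and the study's methods list UAS-Dicer2 in its driver strains. They spent 3 days at 25 °C, then developed at 29 °C, and were dissected at 0 to 2 days of age. The bam mutant males were bam1/bam86, mutant for the gene of Bam, the protein that turns spermatogonia to differentiation. They were raised at 22 °C, received 37 °C for 30 min as pupae and were dissected after another 48 h at 25 °C, and the methods list the CyO balancer for them. Genotype, temperature, heat shock and strain background therefore cannot be told apart in any comparison below. The labels number the replicates without naming separate crosses, so that p-values measure the spread between these samples, which may be technical.

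Gene counts totalled 30411385 and 26984758 in the knockdown and 118209171 and 95125694 in the bam mutant. Levels are given in CPM, the counts divided by the size of their library, with that size adjusted by TMM scaling (a trimmed mean of log ratios between libraries). The targeted transcript, annotated as Rcd-1, stood at 13.5 and 16.2 CPM in the knockdown libraries, against 204 and 207 CPM in the bam mutant libraries. On a marker list, 15 genes entered as germline summed to 3195 and 2882 CPM in the knockdown. In the bam mutant they summed to 1941 and 1891 CPM. By contrast, 12 somatic cyst and hub genes summed to 415 and 367 CPM against 629 and 644 CPM. Of these, 9 were called lower in the knockdown. On that list chinmo was called higher, at 162 and 156 CPM against 97.3 and 103 CPM. For this list and those below, 30.7% of all genes tested were called higher and 33.0% lower. The germline list holds Nos, the nitric oxide synthase gene, where nanos was meant. Nos was the 1 listed germline gene with a log2 fold change below 0 (-0.87). It has equal weight in the scaling to the germline genes used below. The knockdown libraries also differed from each other, since 16 spermatid genes summed to 9.07 CPM in the first and 175 CPM in the second, with 15.3 and 17.6 CPM in the bam mutant libraries. Of 15 genes listed as accessory gland genes, 14 were tested. Of those tested, 13 (92.9%) were called higher in the knockdown and Dup99B, a peptide gene of the ejaculatory duct, lower. The 14 listed genes other than Dup99B summed to 495 and 56.2 CPM in those knockdown libraries. In the bam mutant they summed to 11.4 and 3.32 CPM. Dup99B was left out after its values were seen. The sums of 15 spermatocyte genes (321 and 302 CPM against 253 and 242 CPM) also separated the genotypes. Of the 12 spermatocyte genes tested, 7 were called higher and Taf12L lower (-0.94). So did the sums of 10 muscle sheath genes (1075 and 1215 CPM against 1904 and 2084 CPM) separate them. Of 13 heat shock genes tested 9 were called higher and 2 lower, or 69.2% and 15.4%. The part of these differences in the results below was not tested.

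The widest separation among abundant members was at the ATPase position Rpt3. Rpt3R, the paralog of this base ATPase, is annotated on chromosome 3R, 9754735 to 9756510 (BDGP6.54, minus strand, 3 exons), whereas Rpt3 lies on X, 11125101 to 11126785. Rpt3R stood at 133 and 129.9 CPM in knockdown testes, against 62.7 and 59.4 CPM in bam mutant testes. Both knockdown libraries thus lay far above both bam mutant libraries. The log2 fold change of knockdown over bam mutant was 1.11 ± 0.05 (SE; adjusted p = 7.0e-05, edgeR's quasi-likelihood test). Rpt3 itself was not called, at 156 and 142 CPM in the knockdown and 167 and 165 CPM in the bam mutant (log2 fold change -0.16 ± 0.06, adjusted p = 0.0782), and it was called lower in 9 of 15 alternative settings. Rpt3R thus gave 46.1% and 47.8% of the counts of both genes in the knockdown libraries, against 27.3% and 26.4% in the bam mutant libraries. This share does not depend on how the libraries are scaled to each other. It averaged 46.96 ± 1.16% in the knockdown and 26.9 ± 0.64% in the bam mutant (SD, n = 2 each). The exact 95% binomial intervals were 45.1% to 47.2% and 46.7% to 48.9% in the knockdown libraries and 26.8% to 27.9% and 25.8% to 27.0% in the bam mutant libraries. An exact two-sided permutation test of 2 libraries against 2 cannot go below p = 0.333, the value obtained here, so that only the fit across genes bears on significance. In whole testes, fewer cells of a type and less RNA per cell cannot be told apart.

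The other paralogs of the ATPase ring differed in level and in contrast. Rpt4R, the counterpart of the X-linked Rpt4, was the most abundant paralog at 214 and 187 CPM in the knockdown, against 185 and 181 CPM in the bam mutant. Its own difference of 0.14 ± 0.08 on the log2 scale was not called (95% interval -0.06 to 0.34, adjusted p = 0.184, edgeR), although without knockdown replicate 2 it was 0.23 and called (adjusted p = 0.00278). Rpt4 was lower, at 168 and 163 CPM in the knockdown against 214 and 207 CPM in the bam mutant (log2 fold change -0.34 ± 0.06, adjusted p = 0.00341). Rpt4R therefore held 56.0% and 53.5% of the counts of the pair in the knockdown libraries and 46.4% and 46.6% in the bam mutant libraries. It gave more counts than its constitutive partner in both knockdown libraries and fewer in both bam mutant libraries.

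Rpt6R, the counterpart of the X-linked Rpt6, was far lower in level. It stood at 20.8 and 17.1 CPM in knockdown testes, against 14.0 and 11.6 CPM in bam mutant testes. Its log2 fold change was 0.57 ± 0.15 (adjusted p = 0.0193, edgeR), but without bam mutant replicate 2 the gene was no longer called (0.34, adjusted p = 0.147), and relative to the germline genes its difference was 0.0081 where that of Rpt3R was 0.55. Rpt6 was lower, at 167 and 153 CPM in the knockdown and 213 and 203 CPM in the bam mutant (-0.38 ± 0.07, adjusted p = 0.00562). The share of Rpt6R was 11.1% and 10.1% in the knockdown libraries, against 6.17% and 5.41% in the bam mutant libraries. At all 3 duplicated ATPase positions the paralog thus took a larger part of the counts in both knockdown libraries.

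**Figure D1:**
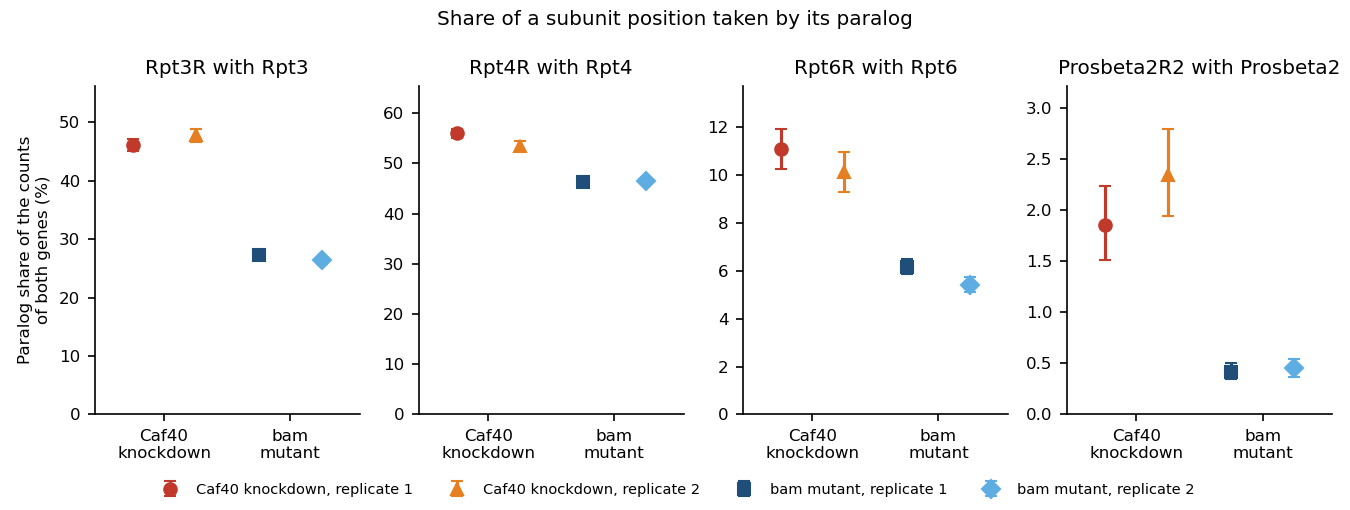
Share of the counts of a subunit position given by its testis paralog, in percent of the paralog plus its constitutive partner, for 4 positions (each panel has its own axis from 0). Points are single libraries and bars their exact 95% binomial intervals. Both knockdown libraries lie above both bam mutant libraries in the 4 panels shown. Rpn12R, which also had at least 10 counts in every library, is not shown. Its share overlapped between genotypes, at 0.246% and 0.907% in the knockdown and 0.724% and 0.609% in the bam mutant.

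The levels of both copies were added per kb of exon to compare the positions of the ATPase ring. With its paralog, position Rpt3 came to 186 ± 7.95 CPM per kb in the knockdown and 149 ± 2.27 in the bam mutant (SD, n = 2 each). For position Rpt4 the total was 247 ± 15.5 CPM per kb in the knockdown and 265 ± 5.22 in the bam mutant. For position Rpt6 it was 127 ± 9.35 CPM per kb in the knockdown and 157 ± 6.45 in the bam mutant. On this TMM scale the pair totals therefore did not follow the paralogs: they were higher in both knockdown libraries at Rpt3, lower in both at Rpt6, and at Rpt4 the library ranges (236 to 258 against 262 to 269) were close without overlapping. These totals were not tested. The positions with no paralog, Rpt1, Rpt2 and Rpt5, had means of 153, 189 and 129 CPM per kb in the knockdown and 146, 183 and 128 in the bam mutant. Paralogs gave 23.3% and 22.8% of the ring total in the knockdown libraries and 16.8% and 16.7% in the bam mutant libraries. Adding the paralogs did not even out the ring. The coefficient of variation over the 6 positions was 26.5% and 26.4% with them and 25.3% and 25.7% without them in the knockdown, and 28.7% and 28.9% with them and 18.2% and 17.3% without them in the bam mutant.

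In the core particle, Prosbeta2R2 was the one paralog with at least 10 counts in every library. It is a duplicate of Prosbeta2, the subunit with trypsin-like activity, and is annotated on 3R, 5217751 to 5219528. Its counts were 103 and 118 in the knockdown and 123 and 105 in the far deeper bam mutant libraries, or 3.42 and 4.07 CPM against 1.09 and 1.13 CPM. The log2 fold change was 1.76 ± 0.27 (adjusted p = 0.00272, edgeR). Without knockdown replicate 2, the library with high spermatid genes, the difference was 1.63 (adjusted p = 0.000184). Prosbeta2 was lower, at 181 and 169 CPM in the knockdown and 258 and 248 CPM in the bam mutant (-0.53 ± 0.06, adjusted p = 0.00115). The paralog nevertheless gave only 1.85% and 2.34% of the counts of the pair in the knockdown libraries and 0.42% and 0.453% in the bam mutant libraries.

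Of the 16 paralogs, 7 passed the filter on low counts. Of these, 3 were called higher (Rpt3R, Rpt6R and Prosbeta2R2) and 1 lower (Prosalpha1R), while over all 10854 genes tested 63.7% were called, 30.7% higher and 33.0% lower. With so broad a background, the count of called paralogs is no result about the group. Rpn12R, a lid paralog that shares its strand and region with Sytbeta, had 0.432 and 1.55 CPM in the knockdown and 1.44 and 1.17 CPM in the bam mutant, and its groups overlapped (log2 fold change -0.40, adjusted p = 0.599). Without knockdown replicate 2 its difference was -1.59 (adjusted p = 0.00509). Reads of an overlapping gene on the same strand cannot be told apart from its own.

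Prosalpha1R and its neighbour Prosalpha1 could not be read as a position. Prosalpha1R had 0 counts in both knockdown libraries and 36 and 18 in the bam mutant libraries, and Prosalpha1 had 0 and 1 in the knockdown and 4 and 3 in the bam mutant. Prosalpha1R was called lower in the knockdown (adjusted p = 0.0139, edgeR). It passed the count filter only through the bam mutant libraries, so that this call is no support for a difference in expression. Its pooled bam mutant level was 5.15-fold a floor of 3 counts over the knockdown group. That ratio leaves out the counting error of the bam mutant libraries. The other 31 constitutive subunits had at least 141.9 CPM in every library, so that Prosalpha1 stands far below the rest. The genes are neighbours on 2R (Prosalpha1 starts at 7827303 and Prosalpha1R at 7830413), and how alike they are in sequence was not analysed here. Read pairs with several alignments were left out of the gene counts by the aligner, and they made up 1.84% to 2.65% of each library. How many of them came from these genes was not tested.

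The remaining 10 paralogs had fewer than 10 counts in at least 1 library, and most were highest in a single library. Summed, they had 9 and 143 counts in knockdown replicates 1 and 2, against 59 and 85 in the bam mutant libraries. These sums are 0.299 CPM (95% Poisson interval 0.137 to 0.568) and 4.93 CPM (4.15 to 5.80) in the knockdown, and 0.521 CPM (0.397 to 0.672) and 0.912 CPM (0.729 to 1.13) in the bam mutant. Of the 10 genes, 8 were highest in CPM in knockdown replicate 2. These 8 include Prosalpha4T1 with 1 count and Prosbeta5R2 with 3 counts in that library, no more than the floor of 3 counts. Prosalpha6T, the alpha subunit of spermatids named above, had 1 and 32 counts in the knockdown and 10 and 14 in the bam mutant. Prosalpha4T2 had 2 and 36 counts in the knockdown against 10 and 16, and Prosbeta2R1 had 0 and 32 against 7 and 14. Prosbeta5R1, a copy of the subunit with chymotrypsin-like activity, had 1 and 21 counts in the knockdown against 9 and 15, and Rpn13R, a copy of a ubiquitin receptor, 1 and 10 against 4 and 2. Prosalpha3T, Prosalpha4T1, Prosbeta4R1, Prosbeta4R2 and Prosbeta5R2 stayed at 9 counts or fewer in every library.

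The single member of these that was tested, Prosalpha4T2, was not called (log2 fold change 2.32, 95% interval -0.77 to 5.40, adjusted p = 0.149, edgeR). Without knockdown replicate 1 its difference was 3.22 (adjusted p = 8.2e-05) and without knockdown replicate 2 it was -0.92 (adjusted p = 0.507). All 16 spermatid genes of the marker list, none at 0 in any library, had more CPM in knockdown replicate 2 than in the other knockdown library. The low paralogs and the spermatid genes were thus both high in the same library, and neither set separated the genotypes. Rpt3R, Rpt4R and Rpt6R were not higher in knockdown replicate 2 than in replicate 1, whereas Prosbeta2R2 and Rpn12R were.

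**Figure D2:**
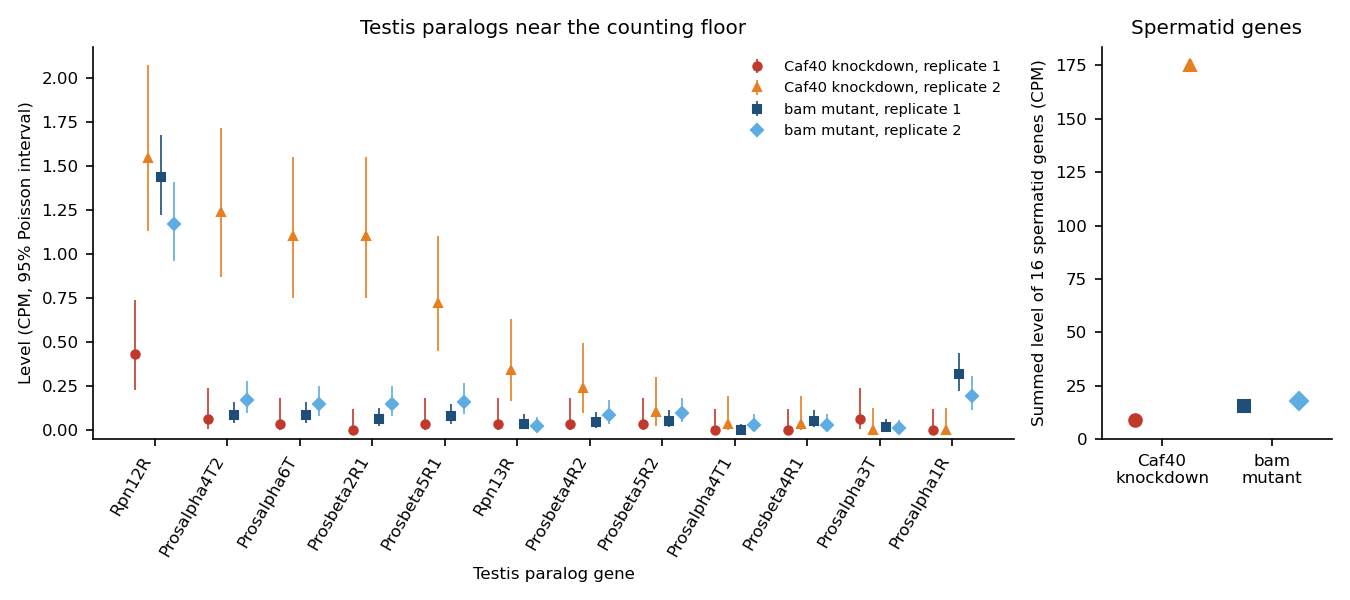
Levels in CPM of the 12 testis paralogs other than Rpt3R, Rpt4R, Rpt6R and Prosbeta2R2 in each library (left, bars are exact 95% Poisson intervals) and the summed CPM of 16 spermatid genes (right). Knockdown replicate 2 has the highest value for Prosalpha4T2, Prosalpha6T, Prosbeta2R1 and Prosbeta5R1 and, at 175 CPM, for the spermatid genes.

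The constitutive subunits formed a narrow band. The 31 genes tested ranged between 91.4 and 293 CPM per kb in the knockdown libraries and between 106 and 308 CPM per kb in the bam mutant libraries, with a coefficient of variation of 28.5% and 28.0% in the knockdown and 30.5% and 29.5% in the bam mutant. Rpt3 was the lowest of them in all 4 libraries. The highest were Prosalpha2 in both knockdown libraries, Prosalpha7 in bam mutant replicate 1 and Prosbeta6 in bam mutant replicate 2. Core particle genes lay mostly above regulatory particle genes per kb. Medians over the alpha ring were 233 and 209 CPM per kb in the knockdown and 248 and 233 in the bam mutant. Over the beta ring they were 210 and 192 in the knockdown and 249 and 246 in the bam mutant. The base had 138 and 129 in the knockdown and 140.3 and 139 in the bam mutant, and the lid 159 and 148 against 156 and 157. Single genes overlapped: in knockdown replicate 1, Rpn6 stood at 228 CPM per kb and Prosalpha6 at 187.

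**Figure D3:**
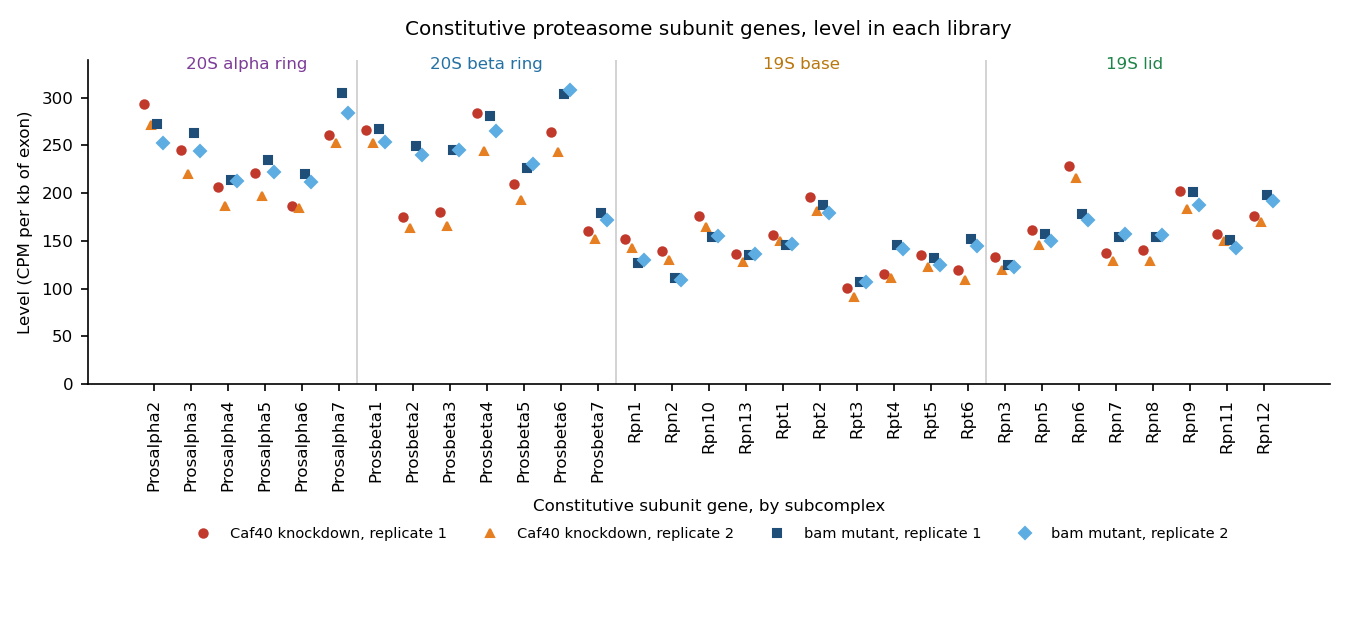
Level of each constitutive subunit gene that was tested, in CPM per kb of exon, in the 4 libraries (knockdown libraries left of bam mutant libraries at each gene). Core particle genes lie mostly above regulatory particle genes, and the separation of the genotypes is widest at Prosbeta2 and Prosbeta3.

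Differences between genotypes were small and went both ways. The log2 fold changes of the 31 genes ran between -0.53 and 0.34 with a median of -0.12, where the median over all genes tested was 0.03. Of the 31, 3 rose and 10 fell in the knockdown and 18 were not called, so that 41.9% were called against 63.7% of all genes. Both knockdown libraries lay above both bam mutant libraries for 5 genes and below them for 15, and overlapped with them for 11, where 41.4% of all genes tested lay above and 42.0% below, 83.4% in all. The direction of a difference this small depends on the scaling. Upper quartile scaling gave 13 higher and 5 lower calls (39.4% and 29.2% of all genes), library size alone 9 and 7 (36.6% and 31.0%), and scaling to the germline genes 0 and 31 (8.60% and 60.4%). The median of the constitutive subunits was 0.15 below the median of all genes, a distance that scaling hardly alters by construction, since it shifts all genes together. Without knockdown replicate 2 the calls were 5 higher and 10 lower (32.7% and 33.5% of all genes), and the distance of the medians was only -0.0096.

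Under TMM scaling no constitutive gene of the core particle was called higher, where 30.7% of all genes were. Tested were 6 alpha ring and 7 beta ring genes. All 7 constitutive beta ring genes had log2 fold changes below 0 and 3 of them fell, or 42.9% beside 33.0% of all genes. Under upper quartile scaling Prosbeta1 was at 0.14, called higher, and Prosbeta4 at 0.094. Besides Prosbeta2, these were Prosbeta3, at 165 and 151 CPM in the knockdown and 224 and 225 CPM in the bam mutant (-0.50 ± 0.06, adjusted p = 0.00136, edgeR), and Prosbeta6, at 249 and 229 CPM against 287 and 290.4 CPM (-0.27 ± 0.07, adjusted p = 0.0154). Both encode beta subunits without a proteolytic site. Prosbeta1 and Prosbeta5, which carry the caspase-like and chymotrypsin-like sites, were not called (-0.0047, adjusted p = 0.951, and -0.18, adjusted p = 0.0552, edgeR), although Prosbeta5 was called lower in 11 of 15 alternative settings. The pair of largest differences in the constitutive set thus belonged to neighbouring members of the beta ring, Prosbeta2 and Prosbeta3. In the alpha ring, Prosalpha6 (-0.22) and Prosalpha7 (-0.20) fell and the other 4 tested genes were not called. That was 33.3% of the alpha ring genes tested, beside 33.0% of all genes called lower. These calls of Prosalpha6 and Prosalpha7 were lost under upper quartile scaling and library size alone. Prosalpha2 was at 0.10, and under upper quartile scaling it was at 0.25 and called higher.

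In the regulatory particle the differences were split. Of 10 base genes, Rpn2 and Rpn1, the large scaffold subunits, rose and Rpt4 and Rpt6 fell. Rpn2 stood at 475 and 444 CPM in the knockdown and 379 and 372 CPM in the bam mutant (0.29 ± 0.07, adjusted p = 0.0121, edgeR). Rpn1 stood at 463 and 433 CPM in the knockdown and 386 and 396 CPM in the bam mutant (0.20 ± 0.07, adjusted p = 0.0457). Rpn1 was called higher in only 8 of 15 alternative settings. Of 8 lid genes, Rpn6, which clamps the lid onto the core particle, rose, at 444 and 419 CPM in the knockdown against 347 and 335 CPM in the bam mutant (0.34 ± 0.06, adjusted p = 0.00631). Rpn7 (-0.22), Rpn8 (-0.21) and Rpn12 (-0.17) fell, calls that were lost under upper quartile scaling and, for Rpn12, under library size alone, while Rpn11, the deubiquitinase of the lid, was not called (0.07). Relative to the germline genes, Rpn1, Rpn2 and Rpn6 were all lower in the knockdown.

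**Figure D4:**
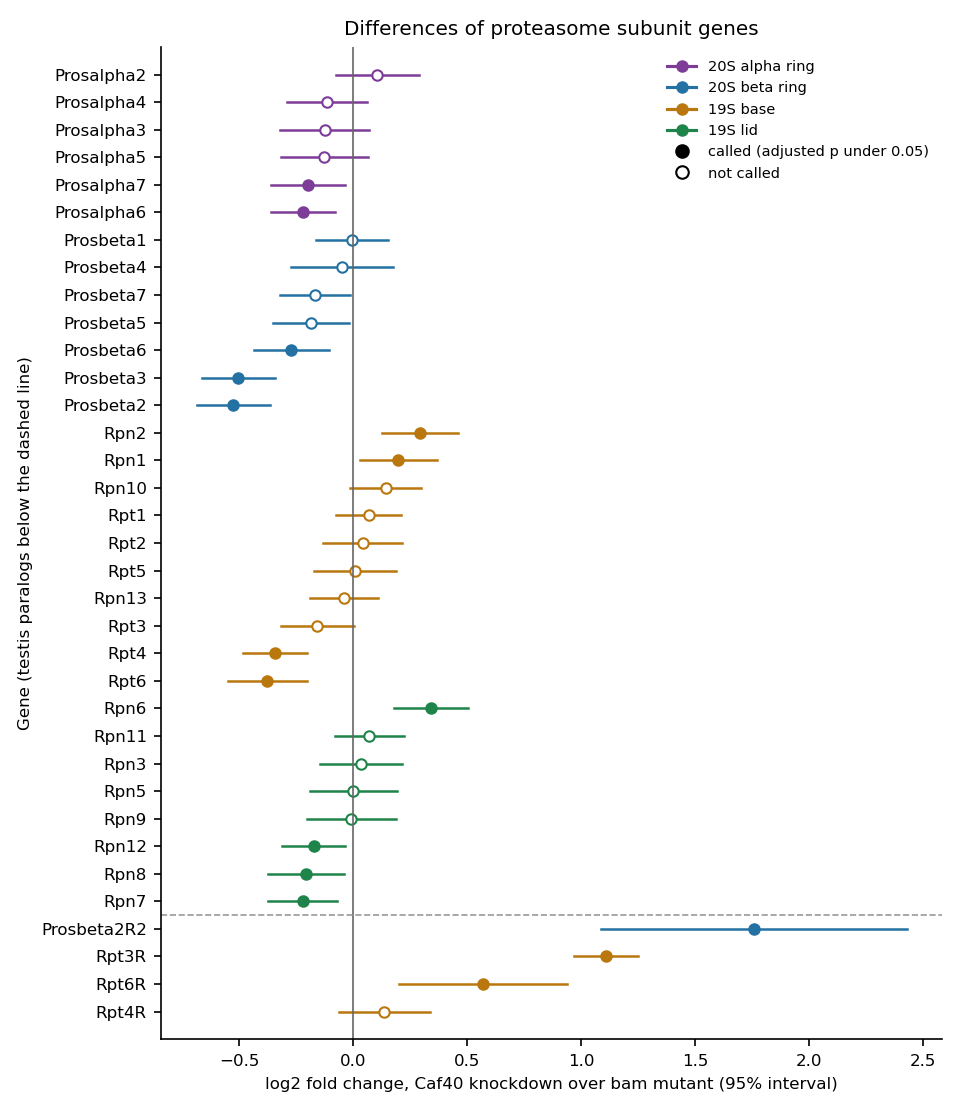
Log2 fold change of Caf40 knockdown over bam mutant with its 95% interval for the 31 constitutive subunit genes tested (above the dashed line) and for Rpt3R, Rpt4R, Rpt6R and Prosbeta2R2 (below it). Filled points were called by edgeR's quasi-likelihood test; Rpt3R at 1.11 and Prosbeta2R2 at 1.76 lie outside the range of the constitutive genes, -0.53 to 0.34. Prosalpha1R, Prosalpha4T2 and Rpn12R are left out for their wide intervals.

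Across the 31 constitutive genes, the log2 fold change increased with exonic length (Pearson's r = 0.56, Spearman's rho = 0.48). The points share all 4 libraries, and core particle genes are the shorter ones, so that length and subcomplex overlap. The genes that rose, Rpn1, Rpn2 and Rpn6, have 3041, 3412 and 1945 bases of exon, and those at the lower end, Prosbeta2 and Prosbeta3, have 1034 and 914. Over all 10646 tested genes with a length, r was -0.05. A length correction of each library, chosen after seeing the data, left r at 0.59 among the constitutive genes. It was fitted over all genes, where the trend was weak, so that it could not test a trend confined to these 31.

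**Figure D5:**
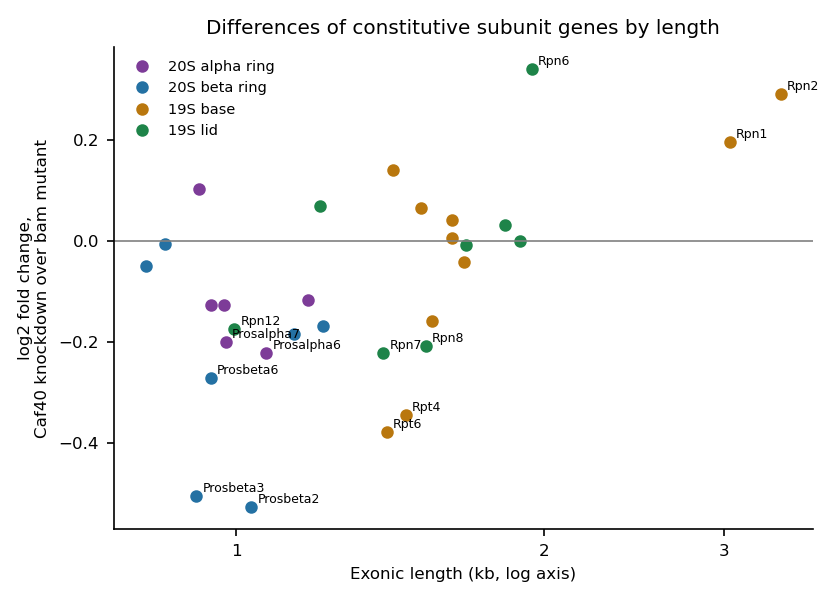
Log2 fold change of Caf40 knockdown over bam mutant against exonic length in kb (log axis) for the 31 constitutive subunit genes tested, coloured by subcomplex, with the called genes named. The 3 genes that rose have 1945 bases of exon or more, and r over all points is 0.56.

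The paralogs were also distributed by chromosome. All 4 constitutive subunit genes on X, namely Prosalpha4, Rpt3, Rpt4 and Rpt6, have testis paralogs, and all 5 of these paralogs are autosomal. Of the 28 autosomal constitutive genes, 8 have paralogs, of which 2 of 11 (Prosbeta2R1 and Rpn13R) are on X. The 4 X-linked constitutive genes had log2 fold changes below 0, with a median of -0.25, and 2 of them were called lower, where 34.2% of all X-linked genes tested were called lower and 60.9% called. Under upper quartile scaling Prosalpha4 was at 0.028. The 27 autosomal ones tested had a median of -0.04. Over all tested genes the medians were -0.02 for X and 0.06 for chromosomes 2 and 3. In gene structure, 6 of the 16 paralogs consist of a single exon, against 4 of the 32 constitutive genes.

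Other genes of the proteasome and ubiquitin pathway were taken from a list by role. Of 29 such genes, 27 were tested, 11 rose and 6 fell (40.7% and 22.2%, beside 30.7% and 33.0% of all genes), with a median log2 fold change of 0.08. The most increased were CG8858, at 210.4 and 190.2 CPM in the knockdown and 107 and 104 CPM in the bam mutant (0.93 ± 0.07, adjusted p = 0.000214, edgeR), the ubiquitin-activating enzyme Uba1 (0.63) and the ligase scaffold Cul3 (0.51). The most decreased were the polyubiquitin gene Ubi-p5E (-0.64), Sem1, which encodes the smallest lid subunit (-0.52), and Pngl, a peptide N-glycanase (-0.49). Sem1 stood at 64.5 and 54.4 CPM in the knockdown and 89.8 and 81.0 CPM in the bam mutant, a log2 difference beyond that of each lid gene named Rpn, although these differences were not compared by a test. Of 3 listed regulators of proteasome gene transcription, 2 rose and Pngl fell, and of 3 shuttling receptors, which carry tagged proteins to the proteasome, 1 rose and 1 fell. Relative to the germline genes, Uba1 was at 0.065 and Cul3 at -0.052, while CG8858 remained higher (0.36).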

How the data were processed

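Per the labels, the authors prepared directional poly(A) libraries with a NEBNext Ultra II kit. They trimmed the reads with Trim Galore, aligned them to dm6 with STAR and deposited raw read-pair counts per gene and strand. Tool versions and the annotation release are not given in the sources used here. The authors' table of comparison statistics (fold changes and p-values) was not used, nor were 4 sample columns of a normalised table whose names could not all be matched to the labels.

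Counts on the strand read by the kit were used, without the summary entries that name no gene (26.9% to 30.8% of read pairs). Symbols were found for 17253 of 17559 genes, and positions and exonic lengths came from Ensembl 115 (BDGP6.54). Genes were filtered by filterByExpr, scaled by TMM and tested with edgeR 4.0.16 in R 4.3.3 (two-sided quasi-likelihood test on group alone), p-values being adjusted by Benjamini-Hochberg over 10854 genes and a call at an adjusted p under 0.05. Standard errors were derived from the F statistic. Binomial (Clopper-Pearson) and Poisson intervals are at 95% and cover counting error only. A count of 3, the limit that 0 allows, equals 0.0997 and 0.103 CPM in the knockdown and 0.0265 and 0.0322 CPM in the bam mutant. DESeq2 1.42.0 and the other settings described at the end were alternatives. The procedure was also run on simulated counts with less spread between replicates than these data. That run does not bear on small differences.

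The members and gene lists were chosen with earlier results of these data known. Named are the paralogs with at least 10 counts in any library and their partners, per subcomplex up to 3 called subunits in each direction, the subunits highest and lowest in level, and the 3 most increased and decreased related genes.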

Additional observations from a re-analysis of the deposited data

Results flagged for a closer look

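Reads on the strand opposite to a gene entered no comparison. Among genes with at least 10 such counts in each knockdown library, 4 constitutive subunit genes had a higher CPM of them in both knockdown libraries than in both bam mutant libraries. Their mean was 1.63 CPM in the knockdown and 1.27 CPM in the bam mutant for Rpt4, 2.77 and 2.41 CPM for Prosalpha2, and 2.32 and 1.24 CPM for Prosbeta3. Genes annotated on the other strand overlap these 3 (wuho, Aos1 and CG11980). In Prosbeta6, where no such gene is annotated, the mean was 0.966 CPM in the knockdown and 0.29 CPM in the bam mutant. In these 4 genes such reads made up at most 1.45% of the counts on both strands in the knockdown. The direction was not shared by the other constitutive subunit genes that met the same minimum. Rpn1, Rpt2, Rpn8, Rpn9 and Prosbeta5 each had a lower CPM of such reads in both knockdown libraries than in both bam mutant libraries. The corresponding shares over all genes are not given here.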

How the results depend on the processing

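The calls of Prosbeta2, Prosbeta3, Prosbeta6, Rpt4, Rpt6, Rpt3R and Prosbeta2R2 held in all 15 alternatives, and so did those of Rpn2 and Rpn6 apart from their direction. Scaling to the germline genes reversed Rpn1 (-0.36), Rpn2 (-0.27), Rpn6 (-0.22), Rpt4R (-0.43) and Cul3 (-0.052), and called 0 constitutive genes higher and 31 lower (median -0.68) and 2 paralogs lower (median 0.0081). This scaling shifts the median of all genes to -0.53, by construction. Its list includes Nos in place of nanos, and how far this moves the values was not tested. The sign of values near 0 under this scaling is therefore not settled. Upper quartile scaling gave 13 higher, 5 lower and a constitutive median of 0.028, with the median of all genes at 0.18, and library size alone gave 9 higher. With no filter beyond 1 count, 2 of 32 constitutive genes were higher and 19 lower, beside 17.2% and 27.8% of all genes. Their median was -0.27, and the paralog median was 0.95. Thinning the bam mutant libraries to the knockdown depth gave 5 higher and 15 lower of 31 constitutive genes, beside 34.5% and 36.2% of all genes. Thinning and a minimum of 10 counts in every library left no paralog called lower, 0 in each, since Prosalpha1R was no longer tested. The cause of the other changes was not tested. Over all genes, 45.0% to 75.3% were called across the alternatives.

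Leaving out 1 library in turn gave 2 to 5 constitutive genes higher and 10 to 17 lower, with a median between -0.24 and -0.045. The paralogs came to 2 to 8 higher and 0 to 2 lower, with a median between -1.26 and 1.93, and other paralogs passed the filter. Of these settings, leaving out bam mutant replicate 2 gave 16 lower constitutive genes and leaving out knockdown replicate 1 gave 17, and the 8 higher paralogs came without knockdown replicate 1. In these fits a lone library is assumed to vary like the other group. Without knockdown replicate 1, 13 paralogs were tested, beside 7 with all libraries, and knockdown replicate 2 alone stood for the knockdown. Of the 10 low paralogs, 8 were highest in CPM in that library. The higher paralog calls of this fit therefore cannot separate the genotype from that library, and no conclusion is drawn from them.

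Divided by exonic length, the share of Rpt3R was 48.6% in the knockdown and 28.2% in the bam mutant, that of Rpt4R 45.9% in the bam mutant, and that of Prosbeta2R2 1.65% and 0.342%. From unstranded counts, the share of Rpt4R was 47.4% in the bam mutant and that of Rpt6R 13.9% and 7.70%. With the replicate number as a block, 2 constitutive genes were higher and 10 lower, beside 30.0% and 32.6% of all genes. Rpn1 was then no longer called (adjusted p = 0.0597, edgeR). Same-numbered libraries deviated together only weakly (r = 0.26 over 10854 genes) and the labels do not pair them.

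Depth limits the low paralogs: at 0 counts a knockdown library allows up to 0.103 CPM.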
